A study of Mus musculus with 2 samples.

Results

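The molecular clock of omental leukocytes was examined through 10 genes chosen by symbol: Arntl, Per2, Per3, Cry1, Ciart, Bhlhe40, Nr1d1, Nr1d2, Dbp and Tef. All 10 were found among the 19960 genes listed for these libraries, and all 10 reached the minimum of 100 unique molecular identifiers (UMIs, counts of captured RNA molecules) over all leukocytes, as did 12771 genes in total. The study compared the immune cells of the omentum, a visceral fat tissue that carries lymphoid clusters called milky spots, in wild-type (WT) mice and in Postn-DTR mice, which carry the diphtheria toxin (DT) receptor on 1 allele in the first coding exon of Postn (Postn Dtr/+), so that DT ablates Postn-expressing stromal cells. Mice of both groups, on a C57BL/6 background, were given DT intraperitoneally and taken 5 days later, and the cells of 3 mice per group were pooled, per the study's methods. Each group is therefore 1 library, named WT and DTR below, and neither the age of the mice nor the hour of collection is given in the sources used here. A difference in hour between the groups would be confounded with the genotype, so the effects of the 2 cannot be told apart.

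In the cell clock, CLOCK and BMAL1 (the product of Arntl) bind E-box elements and activate the genes of their own repressors, the period and cryptochrome proteins, which close the loop. The same elements drive Nr1d1 and Nr1d2, which encode the nuclear receptors REV-ERB-alpha and REV-ERB-beta and repress Arntl, and Dbp, which encodes an activator of D-box elements. In most tissues Dbp and Nr1d1 therefore peak at a time of day when Arntl is low, and Cry1 peaks later than Dbp. Ciart (CHRONO) and Bhlhe40 (DEC1) encode further repressors that act at E-boxes, and Bhlhe40 is also known as a regulator of cytokine production in activated lymphocytes and macrophages. Lymphocytes and neutrophils carry such clocks and move through tissues with the time of day.

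To show the elements named above, the RefSeq promoter windows (GRCm38.p6, 250 bases before to 50 bases after the start) were searched on both strands for the E-box CACGTG, the related CACGTT or AACGTG, the D-boxes TTATGTAA or TTACATAA and TTACGTAA, and the half-site AGGTCA or TGACCT bound by REV-ERB receptors. CACGTG and TTACGTAA read the same on both strands, and these letters do not overlap one another in the windows printed here. Windows were found for 8 of the 10 genes, and matches in 7 of these 8. The windows with more than 1 match and that of Dbp, the gene with the lowest cluster-adjusted ratio of the 10, are shown with matches in capitals.

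Ciart (chr3:95882179-95882478, minus strand): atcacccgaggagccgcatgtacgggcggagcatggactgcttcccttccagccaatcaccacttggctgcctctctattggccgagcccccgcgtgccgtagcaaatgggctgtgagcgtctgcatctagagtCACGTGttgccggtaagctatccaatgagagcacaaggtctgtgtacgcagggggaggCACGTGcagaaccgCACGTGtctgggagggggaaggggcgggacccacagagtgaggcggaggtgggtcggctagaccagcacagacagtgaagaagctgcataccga

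Cry1 (chr10:85185005-85185304, minus strand): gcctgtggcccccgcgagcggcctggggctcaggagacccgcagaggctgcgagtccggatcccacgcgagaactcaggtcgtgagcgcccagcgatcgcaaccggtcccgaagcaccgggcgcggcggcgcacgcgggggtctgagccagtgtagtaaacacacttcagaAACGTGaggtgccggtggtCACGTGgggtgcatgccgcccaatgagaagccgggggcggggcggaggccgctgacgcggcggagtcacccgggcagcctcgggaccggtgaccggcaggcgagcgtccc

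Per3 (chr4:151044616-151044915, minus strand): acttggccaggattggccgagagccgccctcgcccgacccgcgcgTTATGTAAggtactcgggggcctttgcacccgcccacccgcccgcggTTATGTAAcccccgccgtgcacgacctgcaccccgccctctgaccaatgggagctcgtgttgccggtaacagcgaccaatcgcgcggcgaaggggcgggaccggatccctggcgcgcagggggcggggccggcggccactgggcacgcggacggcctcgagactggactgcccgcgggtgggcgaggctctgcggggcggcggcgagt

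Dbp (chr7:45704997-45705296, plus strand): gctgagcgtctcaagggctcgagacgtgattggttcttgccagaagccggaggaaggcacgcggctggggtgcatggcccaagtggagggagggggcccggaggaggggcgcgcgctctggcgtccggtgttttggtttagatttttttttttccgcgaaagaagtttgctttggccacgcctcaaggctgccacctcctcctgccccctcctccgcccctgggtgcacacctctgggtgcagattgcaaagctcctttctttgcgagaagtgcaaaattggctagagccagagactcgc

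The Ciart window held CACGTG 3 times, starting 116, 58 and 44 bases before the start, as did 0.0883% of all 32851 windows with at least 3 such matches. The Cry1 window held CACGTG 60 bases and AACGTG 79 bases before the start, and the Per3 window held TTATGTAA 205 and 158 bases before it. Of all windows, 7.15% held CACGTG, 4.68% CACGTT or AACGTG, 0.938% TTATGTAA or TTACATAA, 0.119% TTACGTAA and 16.3% AGGTCA or TGACCT. Tef held 1 CACGTG in each of its 2 windows, Nr1d1 AACGTG, Nr1d2 AGGTCA, and 1 of the 2 Arntl windows AGGTCA. The Dbp window held none of these letters, which says nothing of its E-boxes elsewhere.

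After filtering, 8654 WT and 5727 DTR cells were kept, with 80152223 and 81011081 UMIs and a median of 5635 and 8472 UMIs per cell, and 65 cell barcodes occurred in both libraries. The cells fell into 31 clusters, of which 25 were named from marker genes and joined into 22 classes, called "-like" because no annotation was used. The make-up of the libraries differed: plasma-like cells numbered 530 in WT and 1892 in DTR, B2 B-like cells 1478 and 428, and gamma-delta T-like cells 481 and 73. Postn itself had 84 UMIs in WT and 20 in DTR over all cells, of which 57 and 19 lay in the clusters with stromal markers, so the targeted gene was too rare here to check the labels firmly. With 1 library per group there is no replicate check. No p-value was computed, and each interval is a 95% interval of counting error only, which leaves out the spread between cells and between mice.

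Summed over all leukocytes, 6 of the 10 genes (Dbp, Tef, Nr1d1, Nr1d2, Arntl and Bhlhe40) had a log2 ratio of DTR over WT of -0.64 or lower, and all 6 lay nearer to 0 once cells of the same cluster were compared. Levels are UMIs of the gene per 10000 UMIs of the cells concerned, and a ratio is the log2 of the DTR level over the WT level. Dbp stood at 0.1002 in WT and 0.0375 in DTR (783 and 299 UMIs), Arntl at 0.134 and 0.0540 (1050 and 430 UMIs), and Bhlhe40 at 1.33 and 0.428 (10361 and 3413 UMIs), all lower in DTR. When the same counts were compared within each leukocyte cluster and combined, the ratio of Bhlhe40 went from -1.63 to -0.06, that of Arntl from -1.32 to -0.31, that of Nr1d1 from -1.38 to -0.27 and that of Tef from -0.75 to -0.01. Dbp had the lowest adjusted ratio of the 10, at -0.80 (interval -1.02 to -0.57), a level 1.74 times higher in WT.

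**Figure D1:**
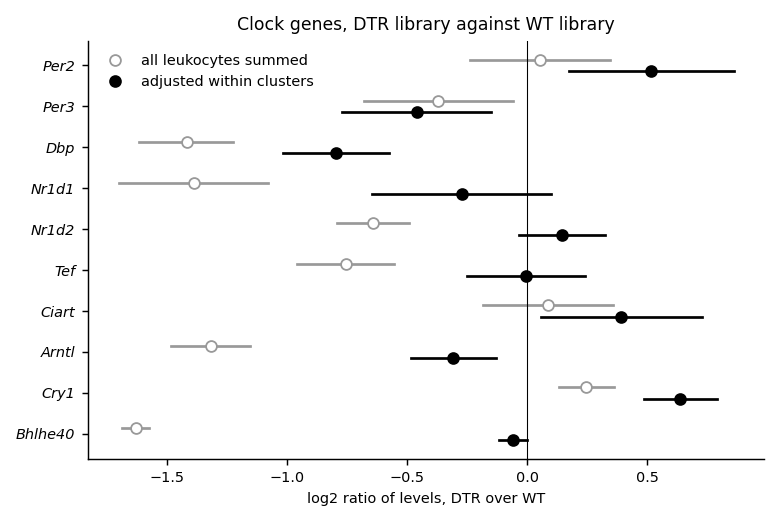
Log2 ratio of the level in DTR over that in WT for the 10 clock genes, with all leukocytes summed (open grey points) and adjusted within clusters (black points), bars giving 95% counting intervals of 1 library per group. Adjustment brings Bhlhe40, Arntl, Nr1d1, Nr1d2 and Tef toward or past 0, while Dbp stays lower in DTR at -0.80 and Cry1 higher at 0.64.

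No gene of the 10 reached a 2-fold difference after adjustment, against a background of 2.19% of 12771 genes at least 2-fold higher in DTR and 2.58% at least 2-fold lower. The 10 genes divided into 4 higher and 6 lower, with a median ratio of -0.03 beside -0.04 over all genes. Cry1 was higher in DTR, at 0.64 (0.49 to 0.79), as were Per2 at 0.52 (0.18 to 0.86) and Ciart at 0.39 (0.06 to 0.73). Dbp was lower, as were Per3 at -0.46 (-0.77 to -0.15) and Arntl at -0.31 (-0.48 to -0.13). The direction of Per3 turned when every cell was thinned to 1000 UMIs, to 1.10. That value is near the floor, since only 11 of 8444 WT and 14 of 5472 DTR leukocytes then held a Per3 UMI. The intervals of Nr1d1 (-0.65 to 0.10), Nr1d2 (-0.03 to 0.32) and Tef (-0.25 to 0.24) held 0, and that of Bhlhe40 ended just below it. Dbp and Arntl were thus both lower in DTR, while Dbp and Per2 differed in opposite directions. How these directions relate to the hour of collection was not tested. Without the plasma-like classes, a setting added after the data were seen, the ratio of Per3 was -0.0042 and that of Bhlhe40 was 0.13.

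Within the classes, 111 of 220 pairs of a gene and a class held at least 20 UMIs over both libraries and were compared. Of these, 12 were at least 2-fold higher in DTR and 21 at least 2-fold lower (10.8% and 18.9%), beside a background of 4.32% and 8.49% of all gene and class pairs with that many UMIs. Small counts scatter more, and among pairs with 20 to 200 UMIs the clock genes gave 10 higher and 19 lower of 90 pairs (11.1% and 21.1%), beside 5.57% and 11.6%. The counting interval lay clear of 0 in 10 of the 12 higher and 13 of the 21 lower pairs. The lower pairs lay mostly with Dbp (5 pairs), Bhlhe40 (4), Nr1d1 (3) and Tef (3), and 5 of the 12 higher pairs were of Cry1.

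**Figure D2:**
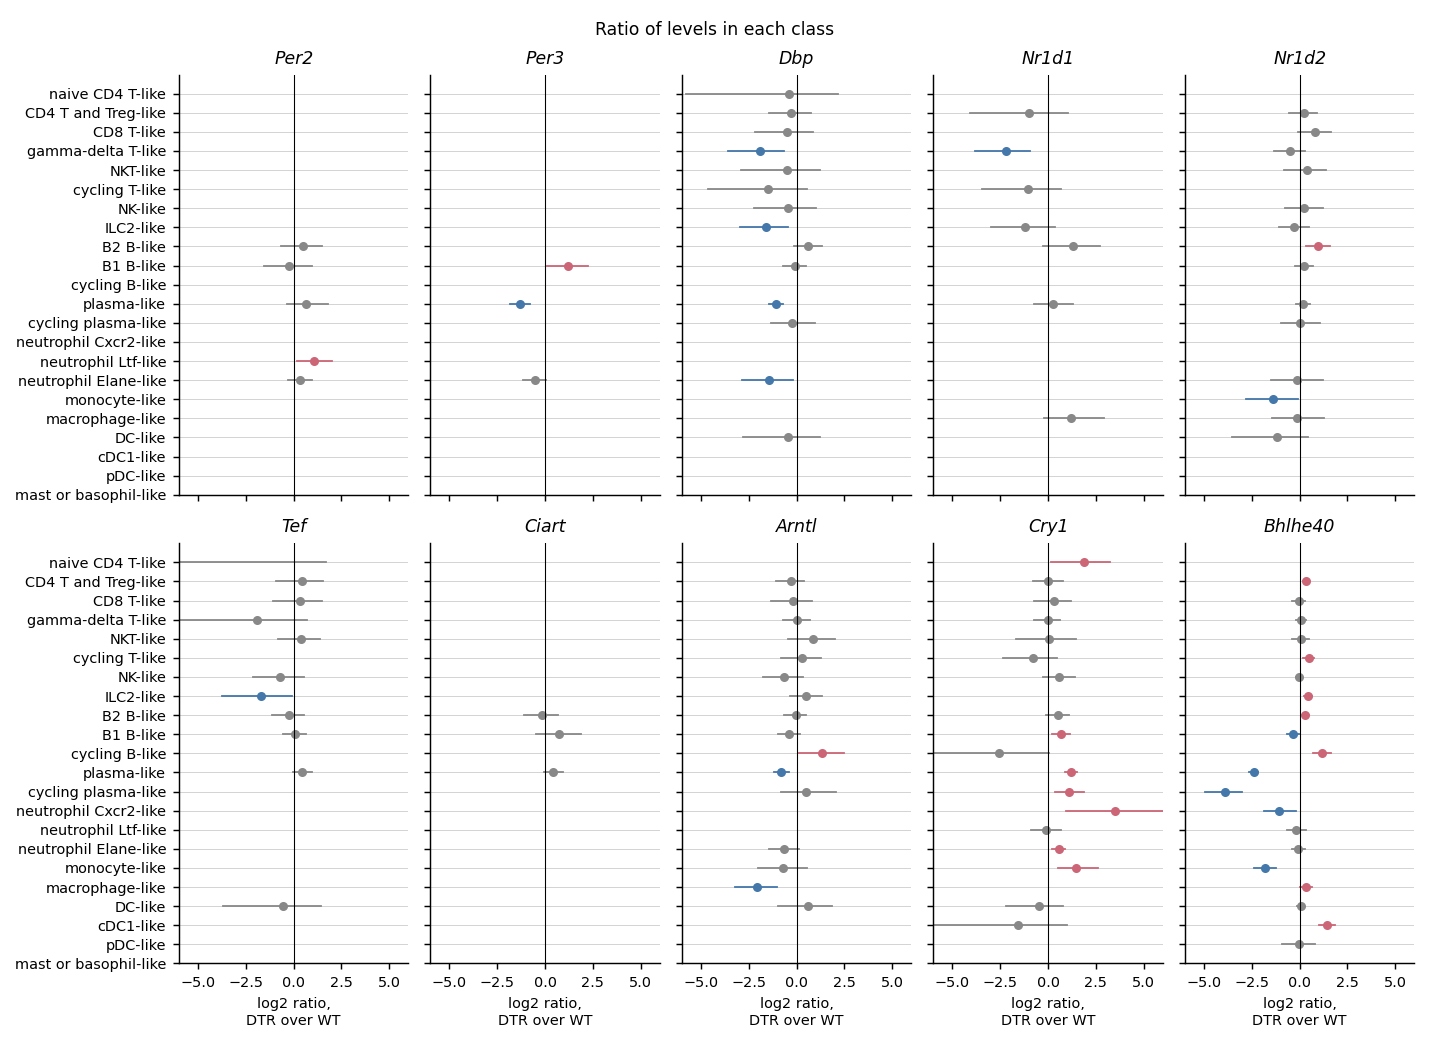
Log2 ratio of the level in DTR over that in WT for each clock gene (panels) in each class with at least 20 UMIs (rows), with 95% counting intervals cut at the panel edge; red marks intervals above 0, blue below 0 and grey across 0. Dbp lies below 0 in 13 of 14 classes, 4 of them with intervals below 0. Cry1 lies above 0 in 12 of 18, 7 of them with intervals above 0, among them both plasma-like classes.

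Arntl (ENSMUSG00000055116, chr7:113207465-113314126, plus strand) encodes the positive arm of the loop. The orders of WT levels given for each gene cover classes with at least 20 WT UMIs of it. In WT its level was highest in gamma-delta T-like cells at 0.489 (interval 0.408 to 0.581), above CD4 T and Treg-like cells at 0.316 (0.266 to 0.371). ILC2-like, macrophage-like, NK-like and CD8 T-like cells followed, each overlapping its neighbour in this order. The ILC2-like (0.203 to 0.464) and macrophage-like (0.194 to 0.458) intervals also overlapped that of gamma-delta T-like cells. Plasma-like cells came last of the 14 classes with 20 or more WT UMIs, at 0.0533, and overlapped Elane neutrophil-like cells at 0.0562. Between libraries Arntl was higher in DTR in 7 and lower in 9 of 16 classes. In gamma-delta T-like cells it stood at 0.489 in WT and 0.498 in DTR, with a ratio of 0.03 (-0.73 to 0.71), and in B2 B-like cells at 0.207 and 0.200. In macrophage-like cells it was 0.305 in WT and 0.0721 in DTR, on 23 and 12 UMIs, a ratio of -2.08 (-3.22 to -1.01). In plasma-like cells it was 0.0533 in WT and 0.0304 in DTR, a ratio of -0.81 (-1.20 to -0.41). In cycling B-like cells it was higher in DTR, at 0.245 against 0.0965, on 11 and 20 UMIs. The macrophage-like class also differed in its markers: the summed level of 9 macrophage markers was 145.7 in WT and 76.3 in DTR, with 7 lower. That of 7 monocyte markers was 53.7 and 71.3. Of these 4 were higher, among them Chil3 at 0.0133 and 15.7, and 3 lower, among them Csf1r at 6.58 and 3.61. For 8 plasma markers the sum was 4.96 and 30.6, with all 8 higher. The sum of 6 T cell markers was 2.39 and 0.150, with all 6 lower. That of 8 DC markers was 22.0 and 8.06, mostly H2-Ab1 at 21.0 and 5.46. Of these DC markers 4 were lower and 3 higher, among the latter Clec10a at 0.743 and 2.40, with Flt3 at 0 in both libraries. No other marker of these 5 lists was at 0 in that class, and the part of these differences in the Arntl value was not tested.

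**Figure D3:**
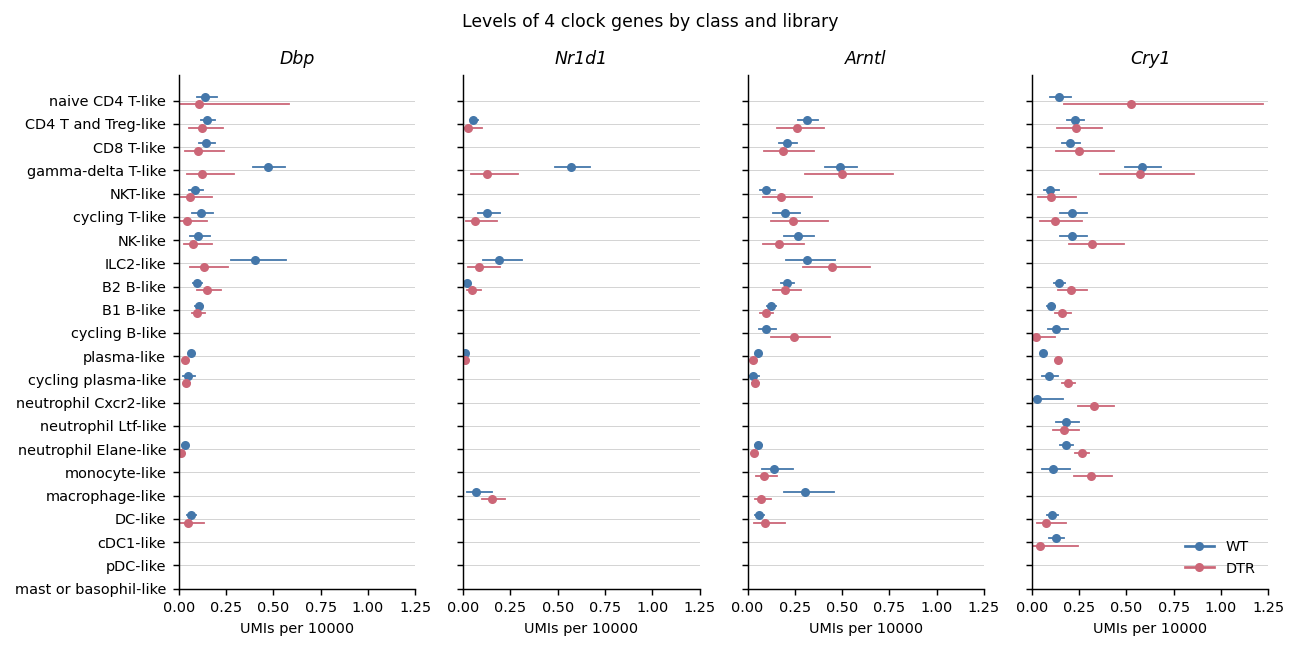
Level (UMIs per 10000 UMIs of the class) of Dbp, Nr1d1, Arntl and Cry1 by class (rows) in WT (blue) and DTR (red), bars giving 95% counting intervals, for classes with at least 20 UMIs over both libraries. In gamma-delta T-like and ILC2-like cells Dbp is higher in WT, while Arntl overlaps between libraries, and in plasma-like and monocyte-like cells Cry1 is higher in DTR.

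Dbp (ENSMUSG00000059824, chr7:45705088-45710203, plus strand), the D-box activator, had its highest WT levels in gamma-delta T-like cells at 0.470 (0.391 to 0.560) and ILC2-like cells at 0.402 (0.275 to 0.568), which overlapped. The 8 other classes in the order lay from 0.149 in CD4 T and Treg-like cells down to 0.0628 in DC-like cells, each overlapping its neighbour. In DTR the gamma-delta T-like level was 0.124 on 5 UMIs, against 124 UMIs in WT, a ratio of -1.92 (-3.57 to -0.66). In ILC2-like cells the level was 0.132 in DTR on 8 UMIs, against 32 in WT, a ratio of -1.61 (-2.94 to -0.46). In plasma-like cells Dbp went from 0.0654 in WT to 0.0308 in DTR, on 108 and 148 UMIs, a ratio of -1.08 (-1.45 to -0.71), and in Elane neutrophil-like cells from 0.0298 to 0.0109, a ratio of -1.45. Dbp was lower in DTR in 13 of 14 classes in all, but its interval lay below 0 in only 4 of them. Naive CD4 T-like cells had 1 DTR UMI of Dbp, cycling T-like cells 2, and NKT-like and DC-like cells 3 each. B2 B-like cells were the class where Dbp was higher, at 0.0973 in WT and 0.148 in DTR, with an interval that held 0 (-0.14 to 1.30). In B1 B-like cells the levels were 0.104 and 0.0970, and in the naive CD4, CD4, CD8, NKT and NK classes the ratio lay between -0.28 and -0.50 with intervals across 0. Of 8729 genes compared in at least 10 classes, 2.65% were likewise lower in DTR in all classes or all but 1.

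Nr1d1 (ENSMUSG00000020889, chr11:98767932-98775333, minus strand) overlaps Thra on the opposite strand. Its WT level in gamma-delta T-like cells, 0.572 (0.485 to 0.671), lay above that in cycling T-like cells, 0.127, and in CD4 T and Treg-like cells, 0.0540. In DTR the gamma-delta T-like level was 0.124, on 5 UMIs against 151 in WT, a ratio of -2.20 (-3.85 to -0.95). This was the 1 class of 7 in which the interval of Nr1d1 lay clear of 0. In ILC2-like cells the levels were 0.189 in WT and 0.0825 in DTR, on 15 and 5 UMIs, and the interval held 0 (-3.01 to 0.34). In B2 B-like cells they were 0.0183 and 0.0451, and in macrophage-like cells 0.0664 and 0.150, so that both ratios lay above 1 with intervals across 0.

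Nr1d2 (ENSMUSG00000021775, chr14:18204054-18239127, minus strand), the second REV-ERB gene, shared the high WT levels of gamma-delta T-like cells, 0.523, and ILC2-like cells, 0.503, whose intervals overlapped each other and lay above all other classes. It was higher in DTR in 8 of 14 classes. In gamma-delta T-like cells it was 0.523 in WT and 0.373 in DTR, a ratio of -0.49 (-1.36 to 0.29), a smaller difference than those of Dbp and Nr1d1 in the same cells, though its interval overlapped theirs. In B2 B-like cells Nr1d2 went from 0.106 in WT to 0.206 in DTR, a ratio of 0.96 (0.32 to 1.58). In monocyte-like cells it went from 0.162 to 0.0624, a ratio of -1.38 (-2.81 to -0.07), on 16 and 8 UMIs. In plasma-like cells, where 92 and 301 UMIs gave the narrowest interval, the levels were 0.0557 and 0.0627 (-0.17 to 0.52).

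Tef (ENSMUSG00000022389, chr15:81802421-81826863, plus strand) encodes a D-box activator of the same family as Dbp. Among the 10 classes with at least 20 WT UMIs its WT level ran from 0.172 (0.116 to 0.246) in NK-like to 0.0285 (0.0209 to 0.0378) in plasma-like cells, and neighbours in this order overlapped while the ends did not. It was higher in DTR in 5 of 11 classes. In ILC2-like cells Tef went from 0.214 in WT to 0.0660 in DTR, on 17 and 4 UMIs, a ratio of -1.70 (-3.73 to -0.08). In gamma-delta T-like cells 25 UMIs in WT and 1 in DTR gave an interval across 0, and in naive CD4 T-like cells 26 and 0 UMIs did not allow a difference to be detected at this depth, although the pair is counted among the 21 lower ones. In plasma-like cells it was 0.0285 in WT and 0.0390 in DTR, with an interval of -0.01 to 0.95.

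In gamma-delta T-like cells, 3 of the 7 clock genes compared (Dbp, Nr1d1 and Tef) were at least 2-fold lower in DTR and none was 2-fold higher, beside a background of 10.5% lower and 3.05% higher in that class. In ILC2-like cells the same 3 of 6 were lower, beside 4.85% lower and 4.43% higher. In plasma-like cells 3 of 10 (Per3, Dbp and Bhlhe40) were at least 2-fold lower and Cry1 was higher, beside 9.23% and 4.96%. The gamma-delta T-like and ILC2-like classes came with marker differences. In gamma-delta T-like cells Il17a was 3.19 in WT and 9.41 in DTR and Cxcr6 9.96 and 6.92, while the summed level of the 6 gamma-delta markers found was 35.6 and 38.2, although 4 of the 6 were lower. The sum of 6 T cell markers was 42.1 and 34.6 there, with 5 lower. In ILC2-like cells the summed level of 9 ILC2 markers was 56.8 and 79.2, with 7 higher, and that of 6 T cell markers 7.39 and 4.39, with all 6 lower. The part of these differences in the clock gene values was not tested.

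Cry1 (ENSMUSG00000020038, chr10:85131700-85185064, minus strand) encodes the late repressor of the loop. Its WT level was highest in gamma-delta T-like cells at 0.584 (0.495 to 0.684), above CD4 T and Treg-like cells at 0.229, and the other 13 classes each overlapped a neighbour down to plasma-like cells at 0.0599. In plasma-like cells, with 99 and 662 UMIs, the level was 0.0599 in WT and 0.138 in DTR, a ratio of 1.20 (0.90 to 1.52), and in cycling plasma-like cells 0.0902 and 0.191, a ratio of 1.08 (0.38 to 1.86). In monocyte-like cells it was 0.112 in WT and 0.312 in DTR, a ratio of 1.48 (0.49 to 2.59). In Cxcr2 neutrophil-like cells 1 UMI in WT and 49 in DTR gave levels of 0.0295 and 0.330, a ratio of 3.49 with a wide interval (0.94 to 8.82). In Elane neutrophil-like cells it was 0.180 and 0.263, a ratio of 0.55 (0.20 to 0.90), and in B1 B-like cells 0.0999 and 0.160, a ratio of 0.68 (0.18 to 1.16). In gamma-delta T-like cells, where it was highest, the levels were 0.584 and 0.572. Of the 18 classes, 7 had intervals above 0 and none below, and the 2 classes at least 2-fold lower in DTR, cycling B-like and cDC1-like cells, had 1 DTR UMI each.

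In monocyte-like and plasma-like cells, 2 of the classes in which Cry1 was higher, markers of other cells differed as well. In monocyte-like cells the summed level of 11 neutrophil markers was 1.23 in WT and 57.9 in DTR, with 10 higher and Cxcr2, Retnlg, Mmp9, Ly6g and Mpo at 0 in WT. The sum of 8 plasma markers there was 3.94 and 11.4, with all 8 higher and Derl3 at 0 in WT. The 7 monocyte markers of that class summed to 62.2 and 115.8. Of these 3 were higher, among them Chil3 at 6.14 and 60.1, and 4 lower, among them Csf1r at 7.74 and 2.42. In plasma-like cells the neutrophil sum was 0.0648 and 0.447, with 10 of 11 higher and Csf3r at 0 in WT, and the sum of 8 plasma markers was 525 and 367. Of these 8 markers 5 were higher in DTR, among them Mzb1 at 31.7 and 47.5, and Jchain, the most abundant, was 450 in WT and 264 in DTR. Most WT plasma-like cells lay in 1 cluster, with 386 of 530, while DTR cells were spread over it (917) and a second one (678). The part of these differences in the Cry1 value was not tested.

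Per2 (ENSMUSG00000055866, chr1:91415982-91459324, minus strand) and Per3 (ENSMUSG00000028957, chr4:151003652-151044665, minus strand), the period repressors, were sparse, with 191 and 202 UMIs for Per2 and 199 and 157 for Per3 in WT and DTR leukocytes. Per2 was higher in DTR in 4 of 5 classes. In Ltf neutrophil-like cells it was 0.0910 in WT and 0.189 in DTR, a ratio of 1.06 (0.17 to 1.99), and in Elane neutrophil-like cells 0.0595 and 0.0747 (-0.31 to 0.98). In plasma-like cells it was 0.00605 in WT and 0.00959 in DTR, with an interval across 0. Per3 went from 0.0339 to 0.0135 in plasma-like cells, a ratio of -1.32 (-1.86 to -0.78), and from 0.0188 to 0.0428 in B1 B-like cells, a ratio of 1.19 (0.11 to 2.24). Its gene overlaps Camta1 on the same strand, so its reads could not all be assigned with certainty.

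Ciart (ENSMUSG00000038550, chr3:95878503-95882251, minus strand), the gene with 3 E-boxes in the window printed above, was compared in 3 classes and its interval held 0 in each. In B2 B-like cells it was 0.1001 in WT and 0.0902 in DTR, in B1 B-like cells 0.0188 and 0.0314, and in plasma-like cells 0.0254 and 0.0340 (-0.08 to 0.94). Its WT level in B2 B-like cells (0.0782 to 0.126) lay above that in plasma-like cells (0.0183 to 0.0344).

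Bhlhe40 (ENSMUSG00000030103, chr6:108660629-108666925, plus strand) had the most UMIs of the 10 genes, and its narrow counting intervals leave out the clumping of UMIs in single cells. Its WT level was 5.60 in NK-like, 4.56 in ILC2-like and 3.92 in DC-like cells, an order in which no neighbours overlapped. It was lowest in Elane neutrophil-like cells at 0.233 among classes with at least 20 WT UMIs, and 16 UMIs in naive CD4 T-like cells gave 0.0803. Between libraries it divided evenly, with 10 of 20 classes higher in DTR. Its interval lay across 0 in several classes with high levels: it was 5.60 in WT and 5.47 in DTR in NK-like cells, 3.92 and 4.07 in DC-like cells and 3.45 and 3.61 in gamma-delta T-like cells. It was higher in DTR in ILC2-like cells, at 4.56 and 6.20, a ratio of 0.44 (0.23 to 0.65), in CD4 T and Treg-like cells, at 3.31 and 4.17, and in cDC1-like cells, at 0.857 and 2.34, a ratio of 1.45 (1.003 to 1.88) from 15 DTR cells. It was lower in plasma-like cells, at 0.267 in WT and 0.0502 in DTR, a ratio of -2.41 (-2.64 to -2.18), and in monocyte-like cells, at 1.01 and 0.289, a ratio of -1.80. In cycling plasma-like cells the ratio was -3.90, but 45 of the 60 WT UMIs came from 1 cell, and without the cell with most UMIs in each library it was -2.68. In macrophage-like cells 44 of the 110 WT UMIs came from 1 cell, and without the top cell of each library the ratio was 1.01 instead of 0.32. In pDC-like cells 11 of the 14 DTR UMIs did, and the ratio was -2.11 instead of -0.01.

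The low plasma-like value of Bhlhe40 came with lower T and NK cell markers in the same cells. The summed level of 6 T cell markers there was 0.614 in WT and 0.183 in DTR, a ratio of -1.75, and that of 8 NK markers 0.219 and 0.0306, a ratio of -2.83, with all 6 and all 8 lower and none at 0. The sum of 8 DC markers was 2.82 and 2.72, mostly H2-Ab1 at 2.57 and 2.66. The other 7 were all lower in DTR, with Cd209a at 0 there. The sum of 9 macrophage markers went the other way, at 0.0684 and 0.155, with 8 higher and 1 lower. Of these Adgre1, Timd4 and Cd163 were at 0 in WT. The sum of neutrophil markers in plasma-like cells, given above, was higher in DTR as well. In cycling plasma-like cells the T cell sum was 0.613 and 0.0701, with all 6 lower. The NK sum was 0.0285 and 0.116, with Prf1 the only marker above 0 in WT, on 6 UMIs, and Klra8 at 0 in both libraries. The sum of 8 DC markers was 8.30 and 3.97, mostly H2-Ab1 at 8.09 and 3.86, with 5 lower, 2 higher and Clec10a at 0 in both libraries. The part of these differences in the ratios of Bhlhe40 in both classes, and of Dbp, Per3 and Arntl in plasma-like cells, was not tested. In monocyte-like cells the sum of 8 DC markers was 12.3 in WT and 2.24 in DTR, with 5 lower, Zbtb46 at 0 in both libraries and Cd209a and Fscn1 at 0 in DTR, and its part in the Bhlhe40 and Nr1d2 values there was not tested. Under finer clustering the ratio of Bhlhe40 in the monocyte-like class was 0.21. That class then also held a cluster of 19 WT and 142 DTR cells. Its leading genes included Alox15, Prg4 and Saa3, as did those of the macrophage-like cluster, so this ratio covers different cells.

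To set the output genes against the activator inside 1 library, the UMIs of the 7 output genes (Per2, Per3, Dbp, Nr1d1, Nr1d2, Tef and Ciart) were divided by those of Arntl in the same cells, so that the depth of the library cancels. The make-up of the library does not cancel in the value over all leukocytes, which was not adjusted for cluster. Over all leukocytes there were 3.01 output UMIs per Arntl UMI in WT (2.80 to 3.23) and 4.51 in DTR (4.06 to 5.02), higher in DTR by 0.59 on the log2 scale (0.40 to 0.77). Without the plasma-like classes this was 0.26. By class the direction was mixed, with 10 of 17 classes higher in DTR and 7 lower. The intervals of the libraries were apart in 4 classes. They were apart upward in macrophage-like cells, from 1.09 (0.592 to 2.004) to 5.92 (3.19 to 12.0), and in plasma-like cells, from 4.17 to 6.51. They were apart downward in gamma-delta T-like cells, from 3.50 (2.87 to 4.29) to 1.45 (0.793 to 2.70), and in ILC2-like cells, from 4.72 (3.05 to 7.59) to 1.78 (1.09 to 2.96). The B2 and B1 B-like classes had 2.42 and 3.16 in WT and 3.55 and 4.76 in DTR, with overlapping intervals.

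**Figure D4:**
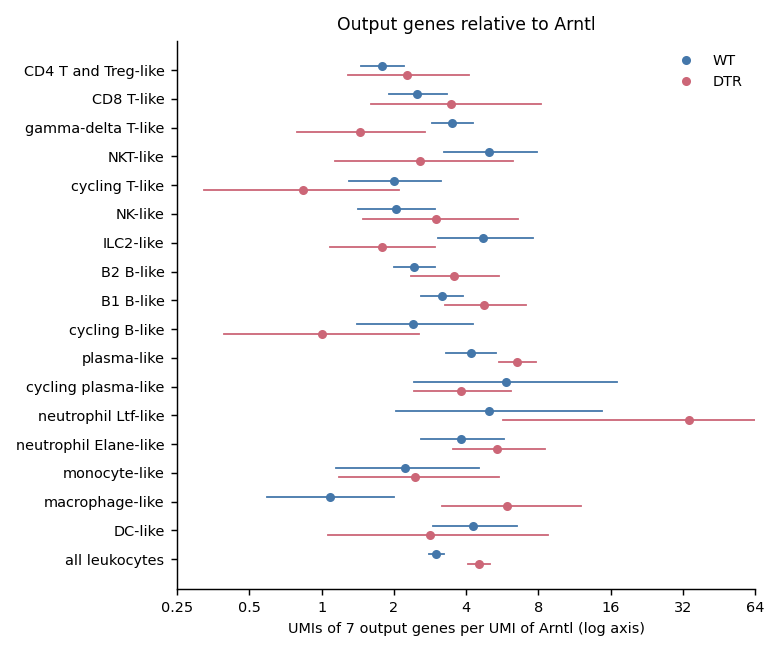
UMIs of the 7 output genes per UMI of Arntl (log axis) in each class with at least 20 such UMIs in both libraries, in WT (blue) and DTR (red), bars giving 95% counting intervals cut at the panel edge. Gamma-delta T-like and ILC2-like cells lie lower and macrophage-like and plasma-like cells higher in DTR, with intervals apart, and the other 13 classes overlap.

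The other genes of the clock gave small differences as well. Of 21 further clock genes 17 had enough UMIs, 8 were higher and 9 lower in DTR after adjustment, none reached 2-fold and the median was -0.07. Hlf, Btrc and Clock were among the genes with ratios farthest from 0. Clock, the partner of Arntl, stood at 0.128 in WT and 0.0643 in DTR over all leukocytes and had an adjusted ratio of -0.32 (-0.50 to -0.14), close to that of Arntl. Hlf, a D-box activator related to Dbp and Tef, had -0.34 (-0.74 to 0.06), and Btrc, a subunit of a ubiquitin ligase that acts on period proteins, had -0.33 (-0.54 to -0.12).

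Glucocorticoid-induced genes follow a hormone that itself varies with the time of day and with stress. Of 12 genes, 1 of which (Per1) is also on the wider clock list, 10 were higher in DTR, 1 of them by over 2-fold, and 2 were lower, with a median of 0.59. Fkbp5, which encodes a co-chaperone of the glucocorticoid receptor, had an adjusted ratio of 2.18 (2.07 to 2.30) and was higher in DTR in 21 of 21 classes, 20 of them at least 2-fold, where 0.183% of 8729 genes compared in at least 10 classes were higher in every class. Mt1, a metallothionein gene, and Ddit4, a stress-induced inhibitor of mTORC1, both had 0.89, and Errfi1, which encodes an inhibitor of EGF receptor signalling, had 0.72. Per1, the period gene that is itself glucocorticoid-induced, stood at 0.06 (-0.02 to 0.14), with 10 of 21 classes higher.

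Of the 12 immediate early genes, 6 were higher and 6 lower, none by 2-fold, with a median of -0.01, and the lowest were Fosb at -0.68, Fos at -0.47, Egr1 at -0.44 and Egr2 at -0.30. By class their direction was mixed. Fosb and Fos were each higher in DTR in 11 and lower in 11 of 22 classes, Egr1 in 10 and 12 of 22, and Egr2 in 5 and 8 of 13. Of the 9 heat shock genes 7 were lower, 2 of them over 2-fold, with a median of -0.39. Hspa1b stood at -2.58 and Hspa1a at -1.75, near-identical copies between which reads may be split, Hsph1 at -0.87 and Hspb1 at 0.76.

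**Figure D5:**
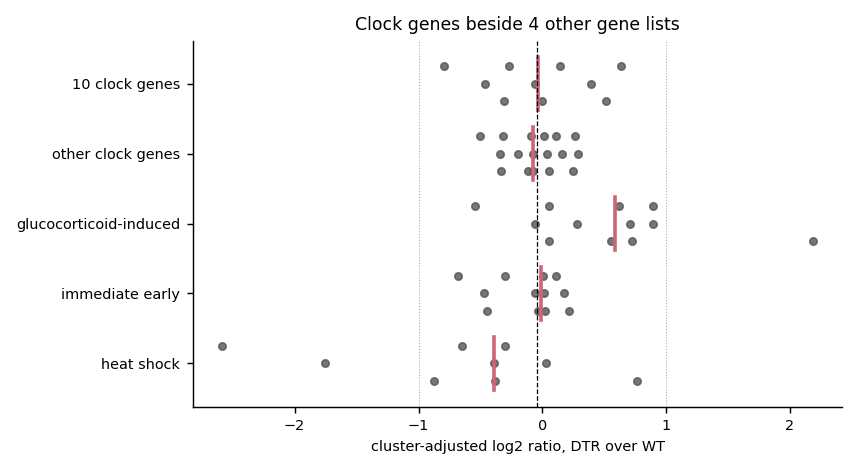
Cluster-adjusted log2 ratio of each gene (points) with at least 100 UMIs in 5 gene lists, with the median of each list (red bar), the median of all 12771 genes (dashed line, -0.04) and 2-fold differences (dotted lines). The clock lists lie within 2-fold on both sides, while Fkbp5 lies at 2.18 among glucocorticoid-induced genes and Hspa1b at -2.58 among heat shock genes.

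Genes whose class ratios ran most like those of a clock gene were sought among genes outside the lists. For Dbp these were Slc36a4 (Pearson's r = 0.89 over 9 classes), Tnfsf10 (0.88 over 9) and Rnase4 (0.88 over 8), of 8658 genes compared. For Arntl they were Pcyox1l (0.95), Atf5 (0.95) and Myo7a (0.89), each over 8 classes, of 8914 genes. These are descriptions over few classes of the same libraries, which share depth and make-up. Nr1d1 was compared in 7 classes, under the 8 required.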

How the data were processed

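Single-cell RNA from the omentum of WT and Postn-DTR mice was measured in 1 library each. Per the labels, libraries were made with 10x 5′ chemistry and Cell Ranger 6.0.0 on mm10, whereas the study's methods name 3′ chemistry and another Cell Ranger version. The deposited matrices hold the natural log of 1 + UMIs per 10000 by the authors; UMIs were recovered from them (99.96% of WT and 99.91% of DTR values whole within 0.1 UMI). The barcode and gene lists as deposited hold names, and 1060 blank symbols, Cry1 included, were filled from GENCODE M21.

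Cells with 200 to 7500 genes and at most 25% mitochondrial UMIs were clustered with Seurat 5.3.0 and sctransform 0.4.2 (3000 features without the listed genes, 30 components, resolution 0.8), without batch correction. Clusters were named from fixed marker lists. The naming thresholds and a doublet score of 0.25 (Scrublet in scanpy 1.11.5; 135 WT and 103 DTR cells, kept in) were set after the clusters and scores were seen. Ratios used summed UMIs with exact conditional binomial intervals, Poisson intervals for levels, and Mantel-Haenszel ratios over leukocyte clusters, tested on simulated data. The simulated counts were independent, with the same fold in every cluster, so clumped UMIs and ratios that differ between clusters were not tested. The coverage threshold of that check was set after a result was seen. All 10 clock genes were named in full. Of the other lists, the 4 adjusted ratios farthest from 0 were named, except 1 item that is not reported here. Per1 was added after its value was seen, as were the marker genes. The members and lists were chosen with earlier results of these data known.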

Additional observations from a re-analysis of the deposited data

Results flagged for a closer look

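Some clock genes differed in opposite directions in 2 classes, with both counting intervals clear of 0; the difference between the classes was not tested. Per3 had a log2 ratio of DTR over WT of 1.19 in B1 B-like and -1.32 in plasma-like cells. Nr1d2 had 0.96 in B2 B-like and -1.38 in monocyte-like cells. Arntl had 1.35 in cycling B-like and -2.08 in macrophage-like cells, and Bhlhe40 had 1.45 in cDC1-like and -3.90 in cycling plasma-like cells. Of the 60 WT cycling plasma-like UMIs of Bhlhe40, 45 came from 1 cell, and without the top cells its ratio was -2.68. The cDC1-like value of Bhlhe40 rested on 15 DTR cells. The ratio of output genes to Arntl was higher in DTR by 2.44 on the log2 scale in macrophage-like cells and had -1.41 in ILC2-like cells.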

How the results depend on the processing

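Each group was 1 library of pooled mice, so no value has a replicate check, and most clock genes had under 100 UMIs in most classes, so that differences under about 2-fold were often not detectable. No paired analysis was possible because each group holds a single library and no test was run. Leaving out called doublets, requiring 500 genes per cell, subtracting the median of all genes, or leaving receptor, ribosomal protein and mitochondrial genes out of the totals kept all values within their intervals and all counts within 1.5 times. The median of all genes lay over 0.1 from 0 in gamma-delta T-like (-0.10), cycling plasma-like (-0.12), macrophage-like (-0.19), DC-like (-0.11), cDC1-like (-0.20) and mast or basophil-like cells (-0.37). With means over cells, Dbp was higher in DTR in 3 classes instead of 1. At the finer clustering (resolution 1.6) Ciart was higher in 1 class instead of 2. Bhlhe40 in the monocyte-like class, which then held a further cluster with macrophage-like leading genes, was 0.21. With classes of at least 50 UMIs, the number of classes higher in DTR was 2 for Arntl and Per2, 1 for Ciart and Nr1d1, 3 for Tef and 0 for Per3. The background of gene and class pairs with at least 50 UMIs was 2.70% higher and 5.38% lower, against 4.32% and 8.49% at 20 UMIs and 8.69% and 13.8% at 1.5-fold.

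Thinning every cell to 1000 UMIs, which leaves few UMIs of these genes, gave adjusted ratios of 0.078 for Bhlhe40, 0.94 for Cry1, 0.84 for Nr1d2, 1.10 for Per3 and -0.35 for Tef. The classes compared then fell to a few: those higher in DTR were 1 for Arntl, 1 for Ciart, 4 for Cry1, 4 for Nr1d2 and 0 for Nr1d1, Per2, Per3 and Tef. Pairs at least 2-fold higher and lower were 3 and 3, the output to Arntl ratio was higher in 1 class, and Dbp in cycling T-like cells changed sign to 1.62. Without the plasma-like classes, chosen after seeing the data, the adjusted ratio was 0.13 for Bhlhe40, 0.45 for Cry1 and -0.0042 for Per3, and the output to Arntl ratio was 0.26. Without clusters of under 50 cells in either library, no value left its interval.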
